A study of Homo sapiens with 29 samples.

Results

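LGX818, also called encorafenib, is a small molecule that blocks the kinase activity of BRAF, and it was added here to melanoma cells that carry extra copies of the mutant kinase it was made against. The comparison covers 3 libraries of WM239A cells overexpressing BRAF-V600E after 20 h in 500 nM LGX818 and 3 libraries of BRAF-V600E cells that received no drug, which are 6 of the 29 libraries of the series. The libraries were assigned to the groups by their labels. WM239A is an established human line from a metastatic melanoma, grown in culture. Other groups of the series are used only to place single values: 3 libraries of BRAF-V600E cells after 7 d in 500 nM LGX818, and 3 libraries of vector cells without drug, which carry the empty vector in place of the BRAF-V600E construct. The untreated cells are labelled as having no drug, with no vehicle named, and the labels do not say whether the overexpressing cells are a single clone or which promoter drives the construct. Cells were trypsinized and frozen at harvest, and RNA of all samples was purified together at the end of the time course. Polyadenylated RNA was sequenced and counted per gene.

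BRAF passes the signal of RAS on to the kinases MEK and ERK, and the V600E form does so without RAS. Active ERK phosphorylates transcription factors in the nucleus, which switch on short-lived response genes, cyclin D and the pathway's own brakes: the DUSP phosphatases that strip phosphate from ERK and the Sprouty and SPRED proteins that act nearer to RAS. In pigment cells a separate network around the transcription factor MITF makes the enzymes and organelle proteins of the melanosome, and ERK signalling is known to restrain part of it.

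Total counts per library were 22934039 to 25150123 with 20 h of LGX818 and 24736045 to 30713170 without drug, and no replicate pair agreed so closely that it could be 1 library deposited again. Mitochondrial genes took 19.5 ± 1.62% of the counts after 20 h of LGX818 and 15.7 ± 0.714% in untreated cells (SD, n = 3 each; exact permutation test, two-sided p = 0.1, adjusted p = 0.15 over 6 library measures; 0.1 is the smallest p that 3 against 3 libraries allow). Values below are CPM, counts per 1e6 counts of a TMM-scaled library size, a scaling that corrects for overall composition. Means are given ± SD over 3 libraries, and log2 changes are 20 h over untreated with their standard error (SE). A gene is said to have risen or fallen only where the Benjamini-Hochberg adjusted p of edgeR's quasi-likelihood test was under 0.05 over 20494 tested genes. By that rule 5830 genes rose, 28.4% of those tested, and 5173 fell, 25.2%; at 2-fold or more the shares were 11.7% and 10.8%. The median log2 change of all tested genes was 0.06. The counts of list members below are to be read against these shares. In bulk RNA, fewer cells of a kind and less RNA per cell cannot be told apart.

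BRAF itself, which the construct was meant to raise, was counted at 679, 726 and 696 CPM in the 20 h libraries and 903, 889 and 893 CPM in the untreated libraries. The treated libraries all lay below the untreated ones, with a log2 change of -0.35 (SE 0.08). Vector cells held 40.2 ± 2.83 CPM, so every BRAF-V600E library was far above them. Counts of BRAF do not separate the line's own transcripts from those of the construct.

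The steepest falls were among the response genes and brakes of the ERK pathway, and the kinases of the pathway itself moved little. EGR1, an immediate early zinc finger factor, had 1.21, 1.59 and 1.7 CPM after 20 h of LGX818 and 429, 391 and 438 CPM without drug. ETV4, an ETS factor, had 2.17, 1.9 and 2.57 CPM with LGX818 and 221, 229.9 and 243 CPM without. SPRY4, a Sprouty inhibitor, had 9.08, 7.75 and 8.86 CPM with LGX818 and 1358, 1289 and 1396 CPM without. For these 3 genes the groups stood 2 orders of magnitude apart and did not overlap. Over all tested genes the libraries of the groups did not overlap in 61.1%, with 32.9% higher and 28.2% lower. EGR1 carries paired sites for serum response factor, through which ERK signalling is known to act on it, close to its start site. The 150 bases before its start (RefSeq, GRCh38.p14, chr5:138465329-138465478) are shown with the matches to the CArG box, the binding motif of serum response factor, in capitals.
EGR1: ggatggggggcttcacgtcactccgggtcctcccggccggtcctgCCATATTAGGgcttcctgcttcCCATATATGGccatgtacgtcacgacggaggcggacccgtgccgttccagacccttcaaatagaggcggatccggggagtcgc
The 2 matches begin 105 and 83 bases before the start. Within 250 bases of the start, 2 of the 13 immediate early genes with a promoter in the table held a CArG box, 15.4%, EGR1 among them. The share was 1.02% in tested genes and 1.34% in all genes that fell at least 2-fold. The matches describe the sequence and were not tested as a cause of the change.

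Among the brakes, the phosphatases and Sprouty proteins split by member. Of 11 DUSP phosphatases 7 fell and 3 rose, with a median log2 change of -1.26, and of 7 Sprouty and SPRED genes 5 fell and 2 rose, with a median of -1.28. DUSP6, the cytoplasmic ERK phosphatase, had 11.5, 11.5 and 9.92 CPM with LGX818 and 417, 419.5 and 426 CPM without. DUSP5, its nuclear counterpart, had 1.64 ± 0.196 CPM with LGX818 and 38.9 ± 1.47 CPM without (log2 -4.57, SE 0.13). DUSP4 kept a higher floor, at 416 ± 21.6 CPM with LGX818 and 1499 ± 50.4 CPM without (log2 -1.85, SE 0.07). All these groups were separate. The members that rose were DUSP9, another ERK phosphatase (log2 0.98, SE 0.29), and DUSP8 and DUSP16, which act mainly on JNK and p38. The DUSP16 change was small (log2 0.30, SE 0.12) and was not called without the first or the second 20 h library or without any one of the untreated libraries, nor without the filter on low counts or by DESeq2. DUSP8 had 1.07 ± 0.101 CPM with LGX818 and 0.303 ± 0.109 CPM without (log2 1.81, SE 0.28). SPRY2 fell (log2 -3.7, SE 0.08), as did SPRY1 (log2 -4.05, SE 0.12), SPRED2 (log2 -1.28, SE 0.09) and SPRED1 (log2 -1.07, SE 0.10), while SPRY3 and SPRED3 rose by 1.05 and 0.99 log2.

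The cascade's own genes changed by less. Of 22 genes from RAS to ERK, 10 rose and 6 fell (median log2 0.19). MAP2K1, which encodes MEK1, had 23 ± 1.03 CPM with LGX818 and 37.9 ± 1.4 CPM without (log2 -0.72, SE 0.07) and MAP2K2, its partner MEK2, rose (log2 0.52, SE 0.11). The adaptors that link receptors to RAS moved apart: GAB1 had 26.2 ± 2.19 CPM with LGX818 and 9.65 ± 1.82 CPM without, and GAB2 had 66.1 ± 2.86 CPM with LGX818 and 144 ± 6.96 CPM without. The RAS activators SOS1 and SOS2 rose by 0.48 (SE 0.12) and 0.90 (SE 0.11) log2, and the scaffold KSR1 rose by 1.05 (SE 0.14).

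**Figure D1:**
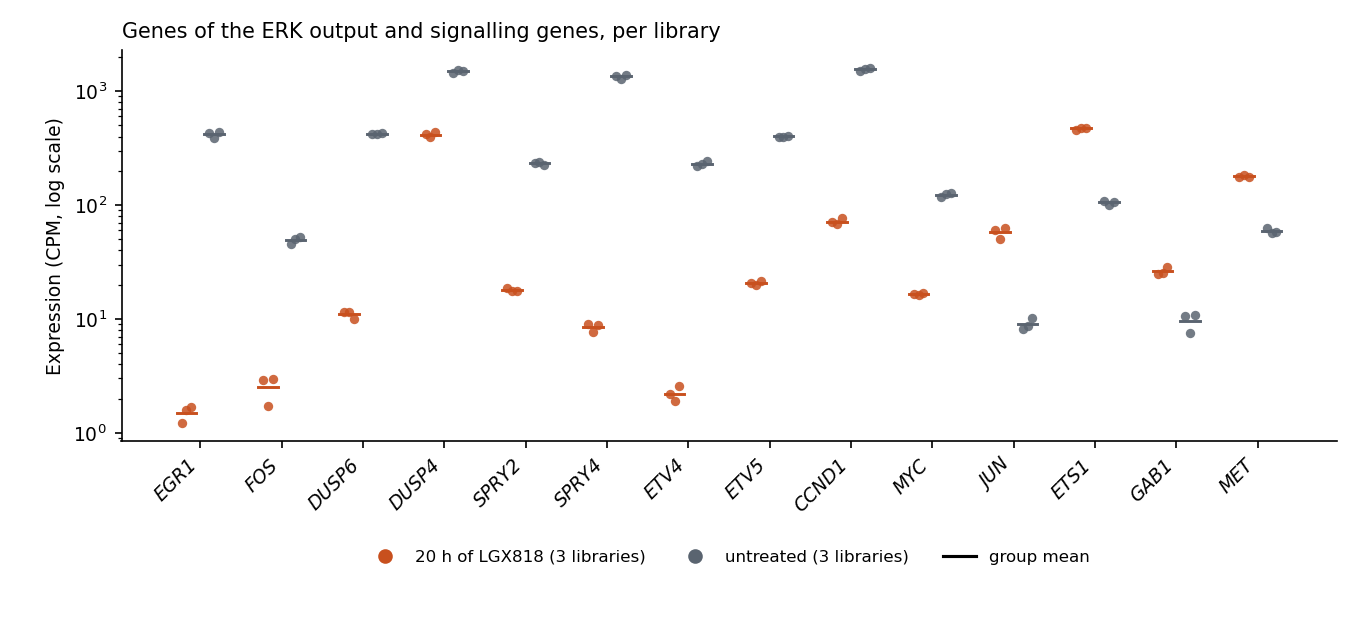
Level of 14 genes of the ERK pathway and its output in each library, as CPM on a log axis, with 20 h of LGX818 (orange) left of untreated cells (grey) and a bar at the mean of 3 libraries. SPRY4 averaged 8.56 CPM with LGX818 and 1348 CPM without, while JUN, ETS1, GAB1 and MET were higher in all 3 treated libraries than in any untreated one.

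Transcription factors of the ETS and AP-1 families, which carry the ERK signal to DNA, did not move as blocks. Of 16 ETS genes 7 fell and 2 rose, and of 14 AP-1 genes 7 fell and 7 rose. The PEA3 group fell together: ETV5 had 20.8 ± 0.767 CPM with LGX818 and 400.4 ± 6.7 CPM without (log2 -4.27, SE 0.08), and ETV1 had 10.4 ± 1.13 CPM with LGX818 and 156 ± 10.9 CPM without (log2 -3.9, SE 0.09). ETS1, the founding member of the family, went the other way, with 459.6, 476 and 478 CPM with LGX818 and 109, 101 and 107 CPM without (log2 2.16, SE 0.08). The 2 groups of ETS1 values did not overlap. ELF1, the other ETS gene that rose (log2 0.25, SE 0.09), was not called when the second or the third library of either group was left out. Among AP-1 genes, FOS had 2.52 ± 0.695 CPM with LGX818 and 49.2 ± 3.55 CPM without, and FOSL1, which encodes FRA1, had 8.27 ± 1.47 CPM and 92.3 ± 5.27 CPM. The small MAF gene MAFF fell (log2 -3.25, SE 0.15), but the large MAF gene MAF had 126, 144 and 152 CPM with LGX818 and 22.1, 20.0 and 20.6 CPM without (log2 2.75, SE 0.12). JUN rose as well (log2 2.68, SE 0.11) and its relatives JUNB (log2 -1.0, SE 0.21) and JUND (log2 -0.61, SE 0.19) fell, although JUND was not called without the second 20 h library; every treated library was on the same side of every untreated one for JUN and MAF.

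Of 19 tested immediate early genes 15 fell and 2 rose (median log2 -2.19). EGR3 had 0.482 ± 0.068 CPM with LGX818 and 95.5 ± 6.53 CPM without, and IER3, an early response gene linked to survival, had 7.88 ± 0.856 CPM with LGX818 and 204 ± 13.1 CPM without. PHLDA2, a growth-restraining imprinted gene, fell (log2 -4.62, SE 0.17), and PHLDA1 kept more of its level, at 199.9 ± 25.1 CPM with LGX818 and 622 ± 34.7 CPM without. The exceptions were the orphan receptor gene NR4A3, at 9.87 ± 0.828 CPM with LGX818 and 2.99 ± 0.273 CPM without (log2 1.72, SE 0.18), and IER5 (log2 0.44, SE 0.10).

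Growth factor genes mostly fell, while receptor genes went both ways and the targets of FOXO factors mostly rose. Of 34 tested ligand genes 19 fell and 6 rose (median log2 -0.89). TGFA, which encodes a ligand of the EGF receptor, had 24.9, 29.1 and 24.6 CPM with LGX818 and 302, 288 and 300.4 CPM without (log2 -3.5, SE 0.08). GDF15, a stress-induced member of the TGF-beta family, had 112 ± 18.7 CPM with LGX818 and 675 ± 86.8 CPM without, and the angiogenic factor VEGFA had 19.2 ± 0.86 CPM and 51.1 ± 1.73 CPM. Each of these ligand genes had all its treated libraries below its untreated libraries. INHBA, a subunit of activin, and FGF2, basic fibroblast growth factor, fell as well (log2 -3.56, SE 0.52, and log2 -3.15, SE 0.25). NRG1, which encodes a ligand of ERBB3 and ERBB4, had 2.53 ± 0.307 CPM with LGX818 and 0.436 ± 0.0312 CPM without (log2 2.52, SE 0.24), and GAS6, the ligand of the AXL family, rose (log2 1.24, SE 0.14). EGFR was not called, with 0 counts over the 3 treated libraries and 10 counts over the 3 untreated ones; it was called lower without the second untreated library, without the filter on low counts and by DESeq2.

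Of 29 tested receptor tyrosine kinase genes 9 rose and 12 fell. MET, the receptor of hepatocyte growth factor, had 175, 182 and 178 CPM with LGX818 and 62.8, 56.5 and 57.8 CPM without (log2 1.6, SE 0.10). KDR, a receptor of vascular endothelial growth factor, had 0.329 ± 0.188 CPM with LGX818 and 9.58 ± 1.01 CPM without (log2 -4.83, SE 0.29). EPHA2, an ephrin receptor, had 14.1 ± 0.909 CPM and 39.5 ± 1.28 CPM (log2 -1.49, SE 0.08). MET was thus higher, and KDR and EPHA2 lower, in every treated library. ERBB3, a receptor of neuregulins, fell by less (log2 -0.38, SE 0.11), INSR, the insulin receptor, rose (log2 0.72, SE 0.19), and FGFR3 had 2.2 ± 0.875 CPM with LGX818 and 0.545 ± 0.187 CPM without.

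FOXO factors are held out of the nucleus by AKT and switch on genes of growth arrest and insulin signalling when they enter it. Of 25 such genes 16 rose and 6 fell (median log2 0.72). TRIM63, a ubiquitin ligase of muscle atrophy, had 99, 109 and 97 CPM with LGX818 and 11.4, 12.4 and 12.6 CPM without (log2 3.07, SE 0.14). IRS2, an insulin receptor substrate, had 198 ± 38.1 CPM with LGX818 and 80.4 ± 4.24 CPM without, and SESN3, a sestrin that restrains mTORC1, had 363 ± 11.9 CPM and 156 ± 19.2 CPM. Rises of 1.35 (SE 0.10), 1.08 (SE 0.07) and 3.03 (SE 0.42) log2 were measured for CCNG2, an atypical cyclin of arrested cells, TXNIP, an inhibitor of glucose uptake, and PIK3IP1, an inhibitor of PI3 kinase. PDK4, a pyruvate dehydrogenase kinase and a textbook FOXO target, fell instead (log2 -1.71, SE 0.23), as did TRIB2 (log2 -0.68, SE 0.07).

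Most genes of cell division fell, and every tested gene of the replisome and of the spindle lists did. Of 15 cyclin, CDK and CDC25 genes 12 fell and 1 rose (median log2 -2.47). CCNE2, an E-type cyclin that starts S phase, had 0.878, 1.21 and 0.593 CPM with LGX818 and 17.4, 15 and 17 CPM without (log2 -4.21, SE 0.18). CDC25A, the phosphatase that activates CDK2, had 1.37 ± 0.267 CPM with LGX818 and 22.8 ± 2.55 CPM without, and CDK1, the mitotic kinase, had 3.27 ± 0.527 CPM and 39.4 ± 2.28 CPM. No treated library reached an untreated one for these 3 genes. The interphase kinase genes CDK4 and CDK2 did not pass the test: CDK4 had 163 ± 11.8 CPM with LGX818 and 154 ± 9.97 CPM without, and CDK2 had 273 ± 5.13 CPM with LGX818 and 265 ± 5.35 CPM without. CDK6 fell (log2 -1.15, SE 0.15). CCND2 was the member that rose, on 12 counts over the treated and 4 over the untreated libraries, and it was not called when the second or the third 20 h library, or the first or the second untreated library, was left out, nor with RLE factors, without the filter on low counts, with the replicate block or by DESeq2.

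Of 7 tested CDK inhibitor genes 4 fell and 2 rose, of which CDKN2A, on 14 counts over the treated and 2 over the untreated libraries, was not called without the first or the second untreated library. CDKN1B, which encodes p27, had 47.2, 48 and 45.9 CPM with LGX818 and 23.1, 24 and 27.1 CPM without (log2 0.93, SE 0.09). CDKN2C, which encodes the CDK4 and CDK6 inhibitor p18, had 18.5 ± 1.11 CPM with LGX818 and 44 ± 2.35 CPM without (log2 -1.25, SE 0.09), and CDKN1C, which encodes p57, fell (log2 -0.93, SE 0.15). CDKN1A, which encodes p21, had 331 ± 18.7 CPM with LGX818 and 316 ± 17.2 CPM without, a log2 difference of 0.07 (SE 0.07; adjusted p = 0.43 in edgeR's quasi-likelihood test).

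E2F factors activate the genes of S phase and are held back by RB family proteins. Of 20 genes of these families, including the DREAM subunits, 17 fell and 3 rose (median log2 -1.14). E2F1 had 0.878, 1.34 and 1.15 CPM with LGX818 and 26.9, 30.3 and 25.8 CPM without (log2 -4.62, SE 0.15). E2F2 fell by more (log2 -5.51, SE 0.20), and MYBL2, the B-MYB factor of mitotic genes, had 6.72 ± 0.992 CPM with LGX818 and 84 ± 4.44 CPM without. The treated and untreated values of these factors were separate. RBL2, which encodes the repressor p130 of resting cells, had 83.2 ± 2.09 CPM with LGX818 and 62.1 ± 3.86 CPM without (log2 0.42, SE 0.07), and RBL1, its relative p107, had 9.68 ± 0.464 CPM and 33.9 ± 2.5 CPM (log2 -1.81, SE 0.13).

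All 48 genes of origin licensing and the replisome fell, 41 of them at least 2-fold (median log2 -2.19). CDC6, which loads the replicative helicase, had 1.84, 1.94 and 1.58 CPM with LGX818 and 57.6, 58.1 and 56.5 CPM without (log2 -5.01, SE 0.10). CDT1, its partner in licensing, had 1.76, 0.775 and 1.11 CPM with LGX818 and 33.4, 41.1 and 37.6 CPM without (log2 -4.94, SE 0.19). GINS2, a subunit of the helicase, had 2.12 ± 0.568 CPM with LGX818 and 32.8 ± 2.41 CPM without. Treated and untreated libraries did not overlap for any of these. The 100 bases before the starts of E2F1 (chr20:33686386-33686485), CDT1 (chr16:88803689-88803788) and GINS2 (chr16:85688955-85689054), from RefSeq on GRCh38.p14, are shown because each holds an E2F site near the start; E2F1 and GINS2 lie on the minus strand and CDT1 on the plus strand. Capitals mark the letters TTCCCGC or TTGGCGC, read on either strand.
E2F1: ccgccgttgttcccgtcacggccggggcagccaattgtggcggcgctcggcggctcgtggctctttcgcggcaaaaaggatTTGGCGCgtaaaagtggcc
CDT1: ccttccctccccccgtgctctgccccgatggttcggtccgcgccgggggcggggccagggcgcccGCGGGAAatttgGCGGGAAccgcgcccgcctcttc
GINS2: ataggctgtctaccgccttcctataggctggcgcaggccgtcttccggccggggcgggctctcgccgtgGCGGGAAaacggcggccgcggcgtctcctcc
The form TTCCCGC was in the 250 bases before the start of 12 of the 41 replisome genes with a promoter in the table, 29.3%, against 8.35% of tested genes and 5.59% of all promoters. The form TTGGCGC was in 5 of the 41, 12.2%, against 3.97% of tested genes. Among all genes that fell at least 2-fold the shares were 10.2% for TTCCCGC and 4.68% for TTGGCGC.

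The 45 spindle and kinetochore genes all fell, and all of them at least 2-fold (median log2 -2.93). PLK1, the polo-like kinase that drives entry into mitosis, had 13.2, 15.6 and 13.5 CPM with LGX818 and 92.1, 101 and 106 CPM without (log2 -2.82, SE 0.11). KIF15, a spindle motor, had 2.59 ± 0.549 CPM with LGX818 and 36.3 ± 2.92 CPM without (log2 -3.8, SE 0.16), and CCNB2, a mitotic cyclin, had 10.6 ± 0.526 CPM and 58.9 ± 5.19 CPM (log2 -2.47, SE 0.10). AURKB, the kinase of the chromosomal passenger complex, had 5.09 ± 0.576 CPM with LGX818 and 64 ± 6.47 CPM without. Every treated library was below every untreated one for these genes. Mitotic genes are known to share a cell cycle homology region (CHR, the letters TTTGAA on either strand) with CCAAT boxes upstream of it; the promoters of PLK1 (chr16:23678789-23678888), KIF15 (chr3:44761694-44761793) and CCNB2 (chr15:59105016-59105145), all on the plus strand of GRCh38.p14 (RefSeq), show it, with CHR and CCAAT matches of either strand in capitals.
PLK1: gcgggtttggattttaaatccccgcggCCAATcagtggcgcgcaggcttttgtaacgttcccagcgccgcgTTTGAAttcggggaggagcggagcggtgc
KIF15: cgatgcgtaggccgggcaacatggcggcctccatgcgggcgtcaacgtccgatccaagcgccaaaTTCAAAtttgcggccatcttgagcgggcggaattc
CCNB2: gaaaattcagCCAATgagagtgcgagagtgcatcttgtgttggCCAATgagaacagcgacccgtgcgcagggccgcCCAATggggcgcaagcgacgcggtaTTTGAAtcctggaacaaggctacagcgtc
The CHR begins 29 bases before the start in PLK1 and CCNB2 and 35 bases before it in KIF15. Within 250 bases, 50% of spindle genes with a promoter in the table held the CHR, against 8.87% of tested genes. CCAAT on either strand was in 72.5% of them, against 34.6% of tested genes. Among all genes that fell at least 2-fold the shares were 11.8% for the CHR and 37% for CCAAT. KIF15 has no CCAAT in the window shown.

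**Figure D2:**
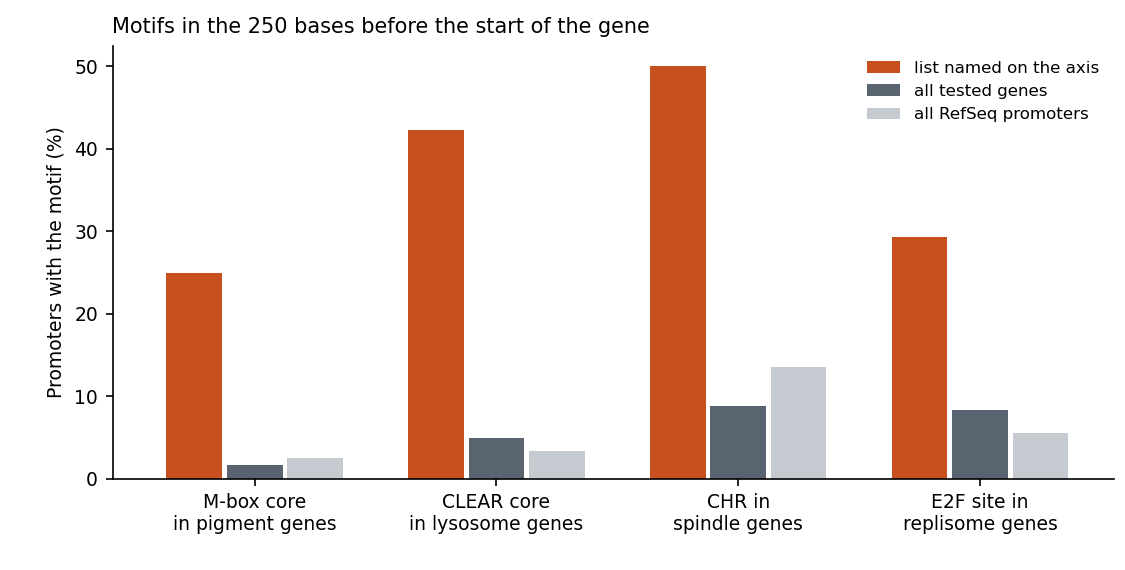
Share of promoters with a motif in the 250 bases before the start, in percent, for 4 motifs, with bars for the named gene list, all tested genes and all promoters in the table. The M-box in pigment genes stood at 25%, CLEAR in lysosomal genes at 42.3%, CHR in spindle genes at 50% and the E2F site in replisome genes at 29.3%, each above the share in tested genes.

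Most DNA repair genes fell. Of 39 repair genes 30 fell and 5 rose (median log2 -1.45). Homologous recombination genes were among the members that fell: BRCA1 had 17.2 ± 1.34 CPM with LGX818 and 63.4 ± 4.41 CPM without. The checkpoint kinase gene CHEK1 (log2 -2.81, SE 0.09) and the Fanconi anaemia gene FANCA (log2 -3.93, SE 0.14) fell too. TP53BP1, which favours end joining, and XPC, which detects damage for excision repair, rose by 0.49 (SE 0.10) and 0.48 (SE 0.07) log2. Genes that keep chromatin through replication were lower, among them UHRF1, which guides DNA methylation to new strands, at 5.78 ± 0.607 CPM with LGX818 and 51 ± 1.72 CPM without, LMNB1, lamin B1 of the nuclear envelope, at 15.5 ± 1.76 CPM and 149 ± 4.02 CPM, and EZH2, the polycomb methyltransferase (log2 -1.53, SE 0.08), while EZH1, its counterpart in resting cells, rose (log2 0.45, SE 0.09) and HDAC9 had 43.7 ± 1.31 CPM and 18.1 ± 0.69 CPM.

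The machinery of growth fell along with the cell cycle, but ribosomal proteins fell far less than the factors that assemble ribosomes. Of 26 purine and pyrimidine synthesis genes 25 fell and none rose by the test (median log2 -1.19). RRM2, the regulated subunit of ribonucleotide reductase, had 4.56, 4.91 and 3.84 CPM with LGX818 and 144, 145 and 147 CPM without (log2 -5.04, SE 0.09). TYMS, thymidylate synthase, had 32.8 ± 0.946 CPM with LGX818 and 184 ± 10.4 CPM without, and CAD, which starts pyrimidine synthesis, had 102 ± 3.27 CPM and 142 ± 2.44 CPM (log2 -0.48, SE 0.10). RRM2 libraries were far apart between the groups, and those of CAD were closer. In the folate and serine branch 7 of 15 genes fell and 5 rose: MTHFD2, the mitochondrial folate enzyme of dividing cells, had 48.1 ± 4.37 CPM with LGX818 and 98.3 ± 4.54 CPM without, and PHGDH, which starts serine synthesis, had 387 ± 17.2 CPM and 227 ± 14.1 CPM (log2 0.77, SE 0.09).

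Of 37 RNA polymerase I and ribosome assembly genes 35 fell and 0 rose (median log2 -0.98). DKC1, the pseudouridine synthase dyskerin, had 38.4, 40.5 and 35 CPM with LGX818 and 119, 127 and 122 CPM without (log2 -1.69, SE 0.07). DDX21, a nucleolar helicase, had 47 ± 2.98 CPM with LGX818 and 138 ± 10.6 CPM without, with no overlap between groups for either gene. Of 50 cytosolic ribosomal protein genes 27 fell, none of them 2-fold, and 0 rose (median log2 -0.27); RPL5 had 243 ± 28.2 CPM with LGX818 and 334 ± 32.5 CPM without (log2 -0.46, SE 0.10). That count was 11 without the third 20 h library, 15 without the second untreated library and 42 in a fit of the 2 groups alone. RNA polymerase III genes had 7 falls and 3 rises among 18, and POLR3G, the subunit of stem and tumour cells, had 23.4 ± 0.87 CPM with LGX818 and 65.4 ± 0.638 CPM without, whereas its paralogue POLR3GL had 7.66 ± 1.82 CPM and 6.58 ± 0.754 CPM and did not pass the test.

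Chaperones that fold new proteins fell: of 24 chaperonin and HSP90 system genes 22 fell and 2 rose (median log2 -0.94). HSPA8, the constitutive HSP70, had 884, 996 and 869 CPM with LGX818 and 2428, 2659.7 and 2451 CPM without (log2 -1.46, SE 0.07). HSP90AB1 had 685 ± 41.2 CPM with LGX818 and 1819 ± 71.8 CPM without. The members that rose were small heat shock genes. CRYAB had 8.42 ± 0.758 CPM with LGX818 and 2.03 ± 0.668 CPM without, and HSPB1 had 364 ± 71.4 CPM with LGX818 and 277 ± 42.3 CPM without. The groups of HSPB1 overlapped, and it was not called when the first or the third library of either group was left out, nor by DESeq2. Of 31 translation factor genes 23 fell and 2 rose, with EIF5A at 253 ± 10.3 CPM with LGX818 and 625 ± 47.3 CPM without. EIF4EBP1, which encodes the translation repressor 4E-BP1, had 49.6 ± 7.22 CPM with LGX818 and 122 ± 18.8 CPM without. Among 20 aminoacyl-tRNA synthetase genes 14 fell and 3 rose, and WARS, for tryptophan, had 819, 835 and 808 CPM with LGX818 and 417, 422 and 435 CPM without (log2 0.95, SE 0.08). Of 36 mitochondrial ribosomal protein genes 23 fell, and 1 rose, MRPL15, which was not called without the first or second 20 h or the first or the third untreated library.

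MYC, which drives many of the genes above in dividing cells, had 16.6, 16.3 and 16.8 CPM with LGX818 and 117, 124 and 129 CPM without (log2 -2.9, SE 0.07). Several genes of its antagonists, which pair with MAX in its place, rose: MXD4 had 103, 90.9 and 112 CPM with LGX818 and 14.2, 13.8 and 14.2 CPM without (log2 2.86, SE 0.09), and MXI1 had 194 ± 11.4 CPM with LGX818 and 80.7 ± 3.34 CPM without (log2 1.27, SE 0.07). MYC was lower and MXD4 and MXI1 higher in every treated library. MXD1 (log2 0.70, SE 0.11) and MNT (log2 0.33, SE 0.10) rose by less, and MNT was not called without the third 20 h library. MXD3, an S phase member of the group, fell (log2 -1.28, SE 0.17), and MAX had 64.7 ± 4.6 CPM and 63.4 ± 0.839 CPM and did not pass the test.

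**Figure D3:**
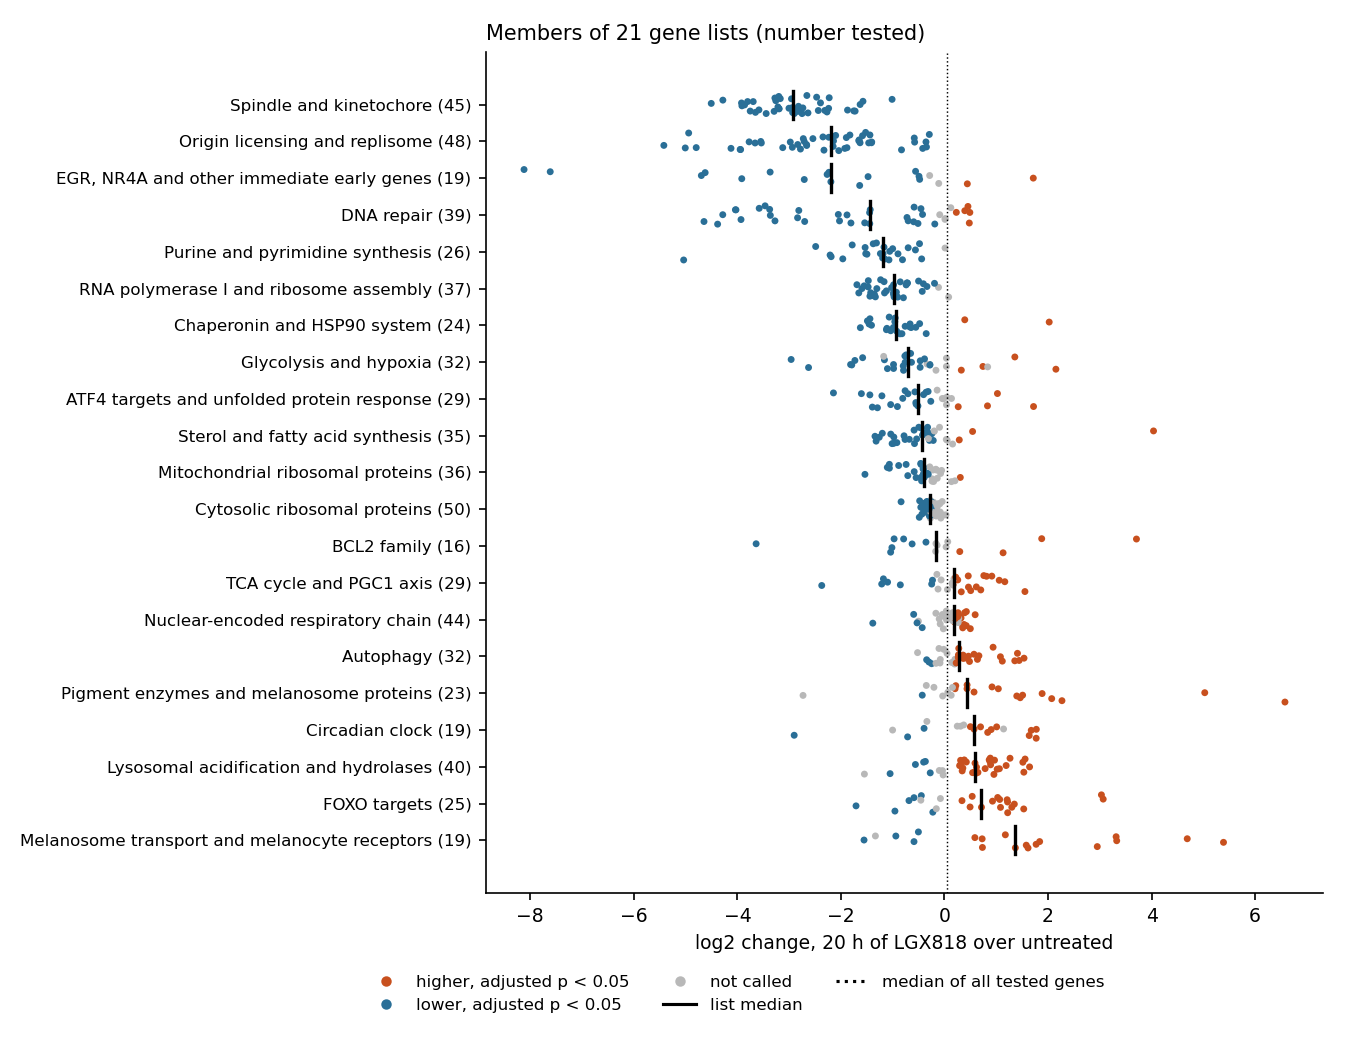
Log2 change, 20 h of LGX818 over untreated cells, of every tested member of 21 gene lists, 1 point per gene, with a bar at the list median. Spindle genes centre at -2.93, replisome genes at -2.19 and ribosomal proteins at -0.27, while lysosomal genes centre at 0.59 and melanosome transport genes at 1.37.

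Most pigment cell genes rose. Of 23 tested pigment enzyme and melanosome protein genes 15 rose, 9 of them at least 2-fold, and 1 fell (median log2 0.44), and of 19 genes of melanosome transport and melanocyte receptors 14 rose and 4 fell (median log2 1.37). DCT, dopachrome tautomerase, had 1769, 1938 and 1883 CPM with LGX818 and 60.0, 55 and 56.4 CPM without (log2 5.03, SE 0.16). TYRP1, its relative in eumelanin synthesis, had 18, 14.6 and 17.3 CPM with LGX818 and 0.16, 0.195 and 0.151 CPM without (log2 6.58, SE 0.32). PMEL, which builds the fibrils of the melanosome, had 2933, 2631 and 2588 CPM with LGX818 and 619, 683 and 638 CPM without (log2 2.07, SE 0.13). The groups of all 3 genes were separate, and TYRP1 remained near 16.6 CPM even with drug. TYR (log2 1.51, SE 0.10) and MLANA (log2 1.04, SE 0.15) rose, as did GPNMB, a melanosome and lysosome glycoprotein, with 3566 ± 142 CPM with LGX818 and 1354 ± 16 CPM without. SLC45A2, a melanosome transporter, rose by 0.22 log2 (SE 0.08), and it was not called without the first 20 h library or without any one of the untreated libraries, nor without the filter on low counts. MITF is known to bind an extended E-box in pigment genes, the M-box, whose core TCATGTG was searched on both strands; the 150 bases before the starts of TYR (chr11:89177725-89177874), TYRP1 (chr9:12693235-12693384) and GPNMB (chr7:23246625-23246774), all on the plus strand of GRCh38.p14 (RefSeq), are shown with the core in capitals.
TYR: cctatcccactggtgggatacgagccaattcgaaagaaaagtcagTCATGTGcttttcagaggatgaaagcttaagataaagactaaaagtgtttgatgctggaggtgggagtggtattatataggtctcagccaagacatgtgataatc
TYRP1: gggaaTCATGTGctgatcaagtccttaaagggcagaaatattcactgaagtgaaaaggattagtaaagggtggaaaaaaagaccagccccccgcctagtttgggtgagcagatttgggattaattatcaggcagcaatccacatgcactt
GPNMB: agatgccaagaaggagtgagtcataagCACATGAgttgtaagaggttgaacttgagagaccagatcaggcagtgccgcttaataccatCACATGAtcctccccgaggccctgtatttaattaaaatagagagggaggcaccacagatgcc
GPNMB holds the core 2 times, both on the opposite strand. The core was in the 250 bases before the start of 5 of the 20 pigment genes with a promoter in the table, 25%, against 1.64% of tested genes and 2.58% of all promoters. Of the 5, GPR143, a melanosome receptor, was counted only 1 and 1 times over the treated and untreated libraries and was not called. Another of the 5, SLC24A5, fell. Among all genes that rose at least 2-fold the share with the M-box core was 3.41%.

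Not every pigment gene followed. SLC24A5, an ion exchanger of the melanosome, had 395, 450.4 and 418 CPM with LGX818 and 576, 542 and 583 CPM without (log2 -0.43, SE 0.12). MC1R, the melanocortin receptor, had 12.9 ± 2.29 CPM with LGX818 and 24.7 ± 1.64 CPM without (log2 -0.94, SE 0.11). BIRC7, an apoptosis inhibitor also known as a MITF target, had 54.8 ± 7.69 CPM with LGX818 and 82.4 ± 2.73 CPM without (log2 -0.59, SE 0.14). All 3 were lower with drug, beside higher TYR, PMEL and DCT in the same libraries. TRPM1, a cation channel of melanocytes, had 315, 323 and 325 CPM with LGX818 and 7.04, 8.01 and 7.87 CPM without. EDNRB, the endothelin receptor that guides melanoblasts, had 698, 762 and 727 CPM with LGX818 and 94.5, 92.4 and 95.8 CPM without (log2 2.95, SE 0.09). Both were separate between the groups. The transport genes MLPH, which tethers melanosomes to myosin, and RAB38, which delivers enzymes to them, rose by 1.84 (SE 0.09) and 1.58 (SE 0.09) log2, and the copper pump ATP7A, which supplies tyrosinase, had 150.3 ± 6.11 CPM with LGX818 and 31.2 ± 3.63 CPM without.

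Lineage factors moved in both directions. Of 21 lineage transcription factor genes 9 rose and 8 fell (median log2 0.26). MITF had 682, 779.7 and 707 CPM with LGX818 and 361, 342 and 344 CPM without (log2 1.05, SE 0.11). PAX3, which acts upstream of MITF, had 272, 271 and 286 CPM with LGX818 and 40.1, 37.6 and 39.1 CPM without (log2 2.83, SE 0.07). TFAP2A, which works with MITF on pigment genes, had 538, 552 and 668 CPM with LGX818 and 79.7, 78.6 and 84.5 CPM without (log2 2.86, SE 0.09). MITF, PAX3 and TFAP2A were higher in every treated library, and so was SOX10, at 964 ± 103 CPM with LGX818 and 478 ± 14.9 CPM without. The factors named for epithelial-mesenchymal transition went in opposite directions. ZEB2, which in melanocytes accompanies differentiation, had 479.8, 534 and 547 CPM with LGX818 and 133, 113 and 127 CPM without, and SNAI2 had 281, 330.1 and 321 CPM with LGX818 and 31.6, 30.2 and 31.9 CPM without. ZEB1 had 1.34, 1.85 and 1.62 CPM with LGX818 and 25.8, 20.9 and 22.4 CPM without, and TWIST1 had 4.18 ± 0.863 CPM and 24.6 ± 0.811 CPM. ZEB2 and SNAI2 thus stood higher, and ZEB1 and TWIST1 lower, in all 3 treated libraries, with log2 changes of 2.06 (SE 0.12), 3.32 (SE 0.09), -3.84 (SE 0.18) and -2.56 (SE 0.13). SNAI1 (log2 -3.34, SE 0.14), the WNT factor gene LEF1 (log2 -2.42, SE 0.07) and the retinoid receptor gene RXRG (log2 -2.4, SE 0.12) fell, while FOXD3, a neural crest factor, and ID2, an inhibitor of basic helix-loop-helix factors, rose by 2.07 (SE 0.14) and 2.51 (SE 0.10) log2.

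**Figure D4:**
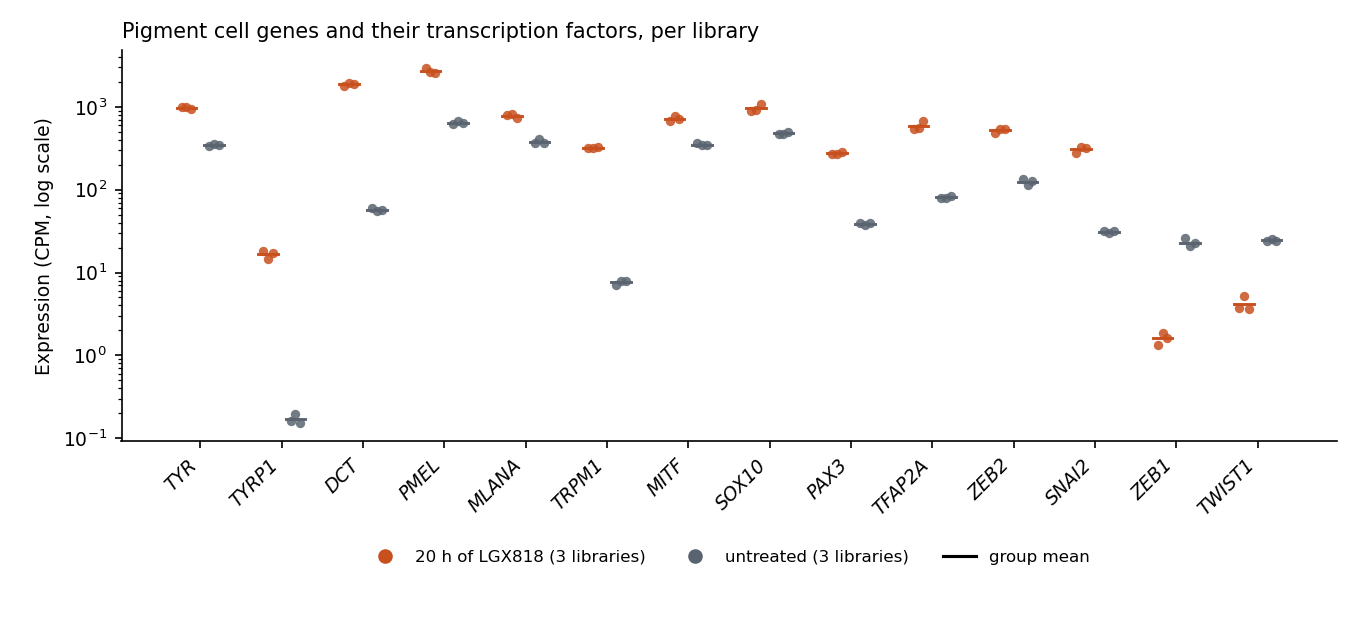
Level of 14 pigment cell genes and lineage factors in each library, as CPM on a log axis, with 20 h of LGX818 (orange) left of untreated cells (grey) and a bar at the mean of 3 libraries. DCT averaged 1863 CPM with LGX818 and 57.1 CPM without, and ZEB1 averaged 1.6 CPM and 23 CPM.

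Genes tied to neural crest and stem-like states did not rise with the pigment genes: of 16 tested 8 fell and 3 rose (median log2 -0.35). ALDH1A3, which makes retinoic acid, had 136, 139.9 and 137 CPM with LGX818 and 3461, 3569.8 and 3517 CPM without (log2 -4.68, SE 0.08), a complete separation and the largest loss in CPM of any tested gene. NGFR, the low-affinity neurotrophin receptor, had 5.36 ± 0.396 CPM with LGX818 and 7.61 ± 0.345 CPM without (log2 -0.51, SE 0.09). L1CAM, a neural adhesion molecule, had 158 ± 4.78 CPM with LGX818 and 35.2 ± 2.12 CPM without (log2 2.16, SE 0.07). SOX2 had 2.66 ± 0.517 CPM with LGX818 and 3.32 ± 0.358 CPM without and did not pass the test, but was called lower without the first 20 h library.

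BH3-only genes, whose products bind and block BCL2-like survival proteins, moved strongly and in both directions. Of 16 tested BCL2 family genes 4 rose and 7 fell. BMF had 182, 186 and 188 CPM with LGX818 and 14.9, 13.6 and 14.2 CPM without (log2 3.71, SE 0.09). BCL2L11, which encodes BIM, had 59.1, 50.6 and 57.5 CPM with LGX818 and 15, 14.9 and 15.6 CPM without (log2 1.88, SE 0.10). PMAIP1, which encodes NOXA, had 3.05, 4.14 and 3.0 CPM with LGX818 and 41.8, 39.2 and 45.7 CPM without (log2 -3.64, SE 0.14). BMF and BCL2L11 were higher and PMAIP1 lower in every treated library. BBC3, which encodes PUMA, had 23.9 ± 2.69 CPM with LGX818 and 10.9 ± 0.873 CPM without (log2 1.13, SE 0.13). Of the survival members, MCL1 had 110.5 ± 2.45 CPM with LGX818 and 227 ± 4.77 CPM without (log2 -1.04, SE 0.06), and BCL2A1, a MITF target in melanocytes, had 77.4 ± 9.98 CPM and 119 ± 8.78 CPM (log2 -0.62, SE 0.12). BCL2L1, which encodes BCL-XL, had 46.6 ± 2.51 CPM with LGX818 and 52.4 ± 3.22 CPM without and did not pass the test, but was called lower without the first library of either group and in 3 other fits. Among 23 tested p53 targets 11 rose and 7 fell: TP53INP1, a stress-induced autophagy gene, had 169.8, 182 and 175 CPM with LGX818 and 24, 22.6 and 23.5 CPM without, and BTG2, an antiproliferative gene, had 21.5 ± 1.63 CPM with LGX818 and 7.7 ± 0.212 CPM without, whereas GDF15, which the p53 list shares with the ligands, fell.

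Most lysosomal and autophagy genes rose. Of 40 tested lysosomal genes 31 rose and 5 fell (median log2 0.59), and of 32 autophagy genes 19 rose and 3 fell (median log2 0.27). CLCN7, the lysosomal chloride transporter, had 686, 542 and 677 CPM with LGX818 and 200.5, 206 and 204 CPM without (log2 1.64, SE 0.09). CTSD, cathepsin D, had 907, 725 and 910.2 CPM with LGX818 and 328, 407 and 378 CPM without (log2 1.19, SE 0.12). CTSA, protective protein cathepsin A, had 1044 ± 34.6 CPM with LGX818 and 366 ± 21.7 CPM without. In each case the treated libraries were all higher. ATG14, which recruits the lipid kinase that starts autophagosomes, had 68.1 ± 3.67 CPM with LGX818 and 23.5 ± 2.37 CPM without (log2 1.54, SE 0.10), and ULK1, the initiating kinase, had 81.6 ± 7.45 CPM and 38.6 ± 2.67 CPM. NPC1, the cholesterol exporter, fell against the list (log2 -1.05, SE 0.08), as did CTSB (log2 -0.40, SE 0.06). TFEB and its relatives, MITF among them, are known to bind the CLEAR element of such genes; its core TCACGTG, which overlaps the palindromic E-box CACGTG, was searched on both strands, and the 100 bases before the starts of CLCN7 (chr16:1475029-1475128, minus strand), CTSA (chr20:45891235-45891334, plus strand) and CTSD (chr11:1763928-1764027, minus strand), from RefSeq on GRCh38.p14, are shown with it in capitals.
CLCN7: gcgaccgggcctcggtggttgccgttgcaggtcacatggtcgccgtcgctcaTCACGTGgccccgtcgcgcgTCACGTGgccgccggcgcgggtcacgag
CTSA: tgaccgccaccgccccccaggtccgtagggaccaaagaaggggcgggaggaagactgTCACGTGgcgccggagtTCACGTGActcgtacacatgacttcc
CTSD: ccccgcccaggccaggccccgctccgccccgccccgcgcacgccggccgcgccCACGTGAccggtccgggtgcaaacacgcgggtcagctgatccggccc
The core was in the 250 bases before the start of 11 of the 26 lysosomal genes with a promoter in the table, 42.3%, against 4.97% of tested genes. Among all genes that rose at least 2-fold the share with the core was 5.31%, close to that of tested genes.

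Glycolysis genes mostly fell, and more genes of the citric acid cycle rose than fell. Of 32 glycolysis and hypoxia genes 22 fell and 4 rose (median log2 -0.70). LDHA, which makes lactate, had 428, 468 and 423 CPM with LGX818 and 1457, 1604 and 1499.6 CPM without (log2 -1.79, SE 0.07). HK2, the inducible hexokinase, had 34.5 ± 0.906 CPM with LGX818 and 121 ± 2.7 CPM without, and SLC2A1, the glucose transporter GLUT1, had 32.5 ± 1.35 CPM and 72.7 ± 1.36 CPM. These were lower in every treated library. EPAS1, which encodes HIF2A, rose (log2 2.15, SE 0.08), as did the muscle-type phosphofructokinase gene PFKM (log2 0.74, SE 0.07). PPARGC1A, which encodes PGC1A, the coactivator of mitochondrial genes and a known MITF target, had 174, 192 and 191 CPM with LGX818 and 66.6, 58.3 and 64.9 CPM without (log2 1.55, SE 0.15). Of 29 genes of the citric acid cycle and the PGC1 axis 15 rose and 7 fell: PDK1, which shuts pyruvate out of the cycle, had 25.9 ± 1.81 CPM with LGX818 and 60.0 ± 2.58 CPM without (log2 -1.21, SE 0.08). TFB1M, a methyltransferase of mitochondrial ribosomal RNA, went against the axis, at 4.4 ± 0.707 CPM with LGX818 and 22.7 ± 0.60 CPM without.

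Of 44 respiratory chain genes in the nucleus 17 rose, 4 fell and 23 were not called (median log2 0.19). The share that rose was 38.6%, against 28.4% of all tested genes, and none of the rises reached 2-fold. NDUFS1, a core subunit of complex I, had 309 ± 11.4 CPM with LGX818 and 238 ± 2.24 CPM without. That count of 17 was 8 without the first untreated library and 10 without the third untreated or the first 20 h library. Of 15 genes on the mitochondrial genome 5 rose and 0 fell (median log2 0.22), and 8 rose without the first 20 h library. MT-RNR2, the large ribosomal RNA, had 27592, 32249 and 29237 CPM with LGX818 and 17144, 17957 and 17921 CPM without (log2 0.75, SE 0.08), and MT-CO1, a subunit of cytochrome oxidase, had 35159.6, 41163 and 40699.6 CPM with LGX818 and 29854, 27602 and 28890.0 CPM without (log2 0.44, SE 0.08). MT-ND1 had 5661 ± 892 CPM with LGX818 and 6552 ± 551 CPM without and did not pass the test, but was called lower without the second untreated library, without the filter on low counts and in the fit of the 2 groups. The first treated library was the lowest of its group in mitochondrial share, 17.6% against 20.1% and 20.7% in its replicates. The part of that library in these changes was measured only by leaving it out. Scaling the libraries without mitochondrial counts gave 5756 rises and 5238 falls over all genes.

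Most lipid synthesis genes fell, 25 of 35 sterol and fatty acid genes against 3 that rose (median log2 -0.42). FASN, fatty acid synthase, had 422, 338 and 445 CPM with LGX818 and 938, 947 and 1001 CPM without (log2 -1.26, SE 0.11), and the groups did not overlap. SCD, the stearoyl-CoA desaturase, rose against the list (log2 0.29, SE 0.08), and HMGCS1, at the head of the sterol pathway, had 91.7 ± 10.2 CPM with LGX818 and 105 ± 3.83 CPM without and did not pass the test. It was called lower in 8 of the other fits, among them DESeq2 and the fits without the second library of either group. Of 29 ATF4 and unfolded protein response genes 19 fell and 4 rose. The partners of the large amino acid transporter went up together, SLC7A5 to 1437 ± 114 CPM with LGX818, against 436 ± 8.42 CPM without, and SLC3A2 to 436 ± 38.3 CPM, against 214 ± 16.9 CPM. Other transporters fell, among them SLC1A5 for glutamine (log2 -1.39, SE 0.08) and SLC7A11 for cystine (log2 -0.51, SE 0.14). ASNS, asparagine synthetase and a sensitive ATF4 target, had 68.4 ± 5.15 CPM with LGX818 and 66.5 ± 5.94 CPM without and did not pass the test. FTL, the ferritin light chain, had 5943, 5513 and 5458 CPM with LGX818 and 1913, 2298 and 2125 CPM without (log2 1.42, SE 0.11), the largest gain in CPM of a nuclear gene.

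Matrix, protease and guidance genes divided member by member. Of 24 tested matrix protease and inhibitor genes 12 fell and 6 rose. MMP1, interstitial collagenase, had 469, 536 and 472 CPM with LGX818 and 3416, 3706 and 3435 CPM without (log2 -2.84, SE 0.11). MMP2, gelatinase A, had 187, 177 and 179.7 CPM with LGX818 and 29, 29.3 and 28.2 CPM without (log2 2.65, SE 0.08). MMP1 was thus lower and MMP2 higher in every treated library, and the MMP2 activator MMP14 (log2 1.19, SE 0.07) and the inhibitor TIMP2 (log2 1.62, SE 0.07) rose with MMP2. TIMP1 (log2 -0.59, SE 0.13), TIMP3 (log2 -0.64, SE 0.08) and the urokinase receptor gene PLAUR (log2 -1.86, SE 0.14) fell. LOXL4, which crosslinks collagen, had 75.2 ± 3.9 CPM with LGX818 and 1984 ± 101 CPM without (log2 -4.72, SE 0.09), and SERPINE2, the protease inhibitor nexin-1, had 2767 ± 98.4 CPM and 5965 ± 240.1 CPM. Of 26 collagen, laminin and related genes 12 rose and 6 fell: LAMA2, a laminin chain, had 144 ± 5.24 CPM with LGX818 and 43.8 ± 3.47 CPM without, and COL4A1, of basement membranes, had 271 ± 4.58 CPM with LGX818 and 571 ± 9.01 CPM without.

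Genes used to mark the invasive state of melanoma did not move as a group, with 7 of 22 rising and 11 falling (median log2 -0.01). WNT5A, a noncanonical WNT ligand, had 2.47, 2.41 and 2.06 CPM with LGX818 and 26.1, 24.5 and 27.5 CPM without (log2 -3.49, SE 0.12), and TNC, tenascin C, had 646 ± 15.5 CPM with LGX818 and 1915 ± 54.2 CPM without. CD44, the hyaluronan receptor, had 1228, 1291 and 1259 CPM with LGX818 and 593, 579 and 579.5 CPM without (log2 1.11, SE 0.06). FN1, fibronectin, had 9039 ± 293 CPM with LGX818 and 7671 ± 497 CPM without and did not pass the test, although it was called higher without the filter on low counts and in the fit of the 2 groups. YAP and TEAD targets fell in 10 and rose in 6 of 19 genes: CTGF and CYR61, matricellular proteins, had log2 changes of -2.23 (SE 0.09) and -2.27 (SE 0.08), and AMOTL2, an angiomotin that restrains YAP, had 53.8 ± 2.55 CPM with LGX818 and 11.3 ± 0.352 CPM without. CDC42EP3, an effector of CDC42, had 11.7 ± 1.74 CPM with LGX818 and 121 ± 2.16 CPM without, and RND3, an atypical GTPase known to depend on BRAF in melanoma, had 24 ± 1.14 CPM with LGX818 and 97.3 ± 5.17 CPM without. Of 28 ephrin and semaphorin genes 13 rose and 12 fell. SEMA6A, a membrane semaphorin, had 149, 150.4 and 164 CPM with LGX818 and 8.56, 7.16 and 7.31 CPM without (log2 4.33, SE 0.13), whereas SEMA6B had 25.3 ± 5.4 CPM with LGX818 and 94.9 ± 12.1 CPM without (log2 -1.91, SE 0.14); SEMA3C rose (log2 4.0, SE 0.14) and SEMA3A fell (log2 -1.85, SE 0.10).

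Genes by which tumour cells meet the immune system went both ways, apart from cytokines. No cytokine or chemokine gene rose, and 9 of 20 tested fell. LIF, an interleukin-6 family cytokine, had 2.84, 2.5 and 2.85 CPM with LGX818 and 138, 133 and 136 CPM without (log2 -5.63, SE 0.09), and CXCL8, interleukin 8, had 0.335, 0.0862 and 0.119 CPM with LGX818 and 8.52, 10.4 and 9.92 CPM without (log2 -5.71, SE 0.26). IL6 was counted 0 times over the treated and 3 times over the untreated libraries. Of 7 tested MHC class II genes 4 rose and 1 fell: CIITA, their master regulator, had 6.84 ± 1.21 CPM with LGX818, 2.47 ± 0.104 CPM in untreated BRAF-V600E cells and 23.5 ± 1.0 CPM in vector cells, and HLA-DRA had 11.3 ± 0.131 CPM, 5.87 ± 0.488 CPM and 58.3 ± 1.16 CPM in the same 3 groups. HLA-DMB, which helps load peptides, fell to 2.42 ± 0.361 CPM with LGX818, against 15.2 ± 1.57 CPM in untreated BRAF-V600E cells and 7.86 ± 0.292 CPM in vector cells. All 7 were lower after 20 h of LGX818 than in vector cells by the same test. Of 16 tested MHC class I and presentation genes 6 rose and 3 fell, with the transporter gene TAP2 at 12.1 ± 0.645 CPM with LGX818 and 22.3 ± 0.805 CPM without (log2 -0.88, SE 0.09); HLA genes are near-identical in stretches, and their counts are uncertain for that reason. Of 30 interferon-stimulated genes 9 rose and 10 fell. STAT2 had 267, 265 and 266 CPM with LGX818 and 73.2, 63.6 and 61.9 CPM without (log2 2.01, SE 0.08), and its partner IRF9 rose (log2 1.6, SE 0.20), while IFIT3 had 24.1 ± 3.95 CPM with LGX818 and 64.4 ± 3.98 CPM without. Among checkpoint and natural killer ligands, NT5E, the ectonucleotidase CD73, fell (log2 -2.16, SE 0.08), PVR, a ligand of TIGIT, fell (log2 -1.38, SE 0.06), and CD47 rose (log2 0.51, SE 0.09).

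Several changes lay outside these programmes. KCNJ13, a potassium channel gene known in retinal pigment epithelium, had 83.4, 84.8 and 80.0 CPM with LGX818 and 0.20, 0 and 0.114 CPM without, from 8 counts over all untreated libraries. It lies inside GIGYF2 on the opposite strand, and whether counting used strand is not given in the sources used here, so that reads of the 2 genes may not be told apart. KCNN4, a calcium-activated potassium channel, had 2.26, 0.948 and 0.633 CPM with LGX818 and 83.7, 97.6 and 87.6 CPM without (log2 -6.13, SE 0.22). CITED1, a transcriptional coregulator of pigment cells, had 212, 209 and 219.6 CPM with LGX818 and 4.64, 6.94 and 5.11 CPM without (log2 5.25, SE 0.17), and MBP, myelin basic protein, had 2159, 2179 and 2251 CPM with LGX818 and 345, 356 and 342 CPM without (log2 2.66, SE 0.08). The treated libraries stood wholly apart from the untreated ones for all of these. The nuclear receptor gene NR5A2 rose (log2 5.35, SE 0.23), and the lipase gene MGLL, which releases fatty acids from monoglycerides, fell (log2 -6.37, SE 0.09). Genes were taken as read in a single group if every library of the other group had at most 0.1 CPM. Every library of the single group also had to reach 5 CPM. The 2 genes that met both limits were lncRNA genes. AC008991.1 had 675 counts over the treated and 0 over the untreated libraries, at least 255-fold higher when 3 counts over the untreated group are taken as the floor, and CTC-523E23.5 had 0 and 605 counts, at least 179-fold lower by the same floor over the treated group.

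Clock genes leaned upward, with 10 of 19 rising and 3 falling (median log2 0.57). PER3 had 94 ± 4.63 CPM with LGX818 and 27.5 ± 1.11 CPM without (log2 1.77, SE 0.12), and BHLHE41, a repressor known as DEC2, had 116 ± 7.71 CPM and 36.4 ± 2.11 CPM, while its relative BHLHE40 fell (log2 -0.71, SE 0.07). Replication-dependent histone mRNAs normally lack a poly(A) tail, so libraries of polyadenylated RNA see only the tailed part; HIST2H2BE had 27.5 ± 1.38 CPM with LGX818 and 7.0 ± 0.21 CPM without and HIST1H2AC had 21.5 ± 2.12 CPM and 3.48 ± 0.118 CPM, whereas the variants H2AFZ and H2AFX, whose genes lie outside the histone clusters, fell (log2 -1.39, SE 0.12, and log2 -2.82, SE 0.18). In a chosen list of snoRNA host genes and other named lncRNAs, 11 of 18 tested members fell and 3 rose. SNHG15, a snoRNA host gene, had 6.36 ± 0.176 CPM with LGX818 and 27.4 ± 2.4 CPM without. MALAT1, a nuclear RNA, had 1921, 2634 and 2092 CPM with LGX818 and 1177, 681 and 806 CPM without (log2 1.32, SE 0.21). The list does not stand for lncRNAs as a class. Of all 1364 tested genes annotated as lincRNA, 317 rose, 23.2%, and 182 fell, 13.3%, with a median log2 change of 0.18. Among genes with a ZNF symbol, which marks zinc finger proteins, 275 of 468 rose, 58.8%, and 45 fell, 9.62%, with a median log2 change of 0.47.

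Values at 7 d and in vector cells show where the 20 h state stands; those contrasts share the 20 h libraries with the one above and are not independent of it. Of the same genes, 5856 were higher and 5974 lower at 7 d than at 20 h (28.6% and 29.1% of those tested). CCND1, cyclin D1, had 1553 ± 45.7 CPM without drug, 71.7 ± 4.34 CPM at 20 h and 1118 ± 23.2 CPM at 7 d. SPRY4 had 1348 ± 54.6 CPM, 8.56 ± 0.708 CPM and 110.2 ± 4.33 CPM in the same order. The cyclin had thus regained most of its untreated mean at 7 d and SPRY4 little of it. All 45 spindle genes were higher at 7 d than at 20 h, and 43 of 48 replisome genes were. PLK1 had 99.5 ± 6.81 CPM without drug, 14.1 ± 1.31 CPM at 20 h and 70.1 ± 4.14 CPM at 7 d. Of the 23 pigment genes 17 were lower and 2 higher at 7 d than at 20 h. DCT had 57.1 ± 2.54 CPM without drug, 1863 ± 86 CPM at 20 h and 2.58 ± 0.384 CPM at 7 d, MITF had 349 ± 10.7 CPM, 723 ± 50.8 CPM and 11.4 ± 0.234 CPM, and PPARGC1A had 63.3 ± 4.41 CPM, 186 ± 10.1 CPM and 1.76 ± 0.219 CPM. For each of these 3 genes the 7 d mean lay below the untreated mean as well as below the 20 h mean. Invasive-state genes went the other way after 20 h, with 21 of 22 higher and 1 lower at 7 d: THBS1, thrombospondin 1, had 87.1 ± 4.54 CPM without drug, 109 ± 2.77 CPM at 20 h and 8073 ± 174 CPM at 7 d, and AXL, a receptor tyrosine kinase of invasive cells, had 3.61 ± 0.59 CPM, 0.609 ± 0.058 CPM and 57.9 ± 1.37 CPM. JUN had 9.02 ± 1.02 CPM, 57.8 ± 6.87 CPM and 224 ± 4.91 CPM, so that it was higher at each later time. CRYAB had 2.03 ± 0.668 CPM, 8.42 ± 0.758 CPM and 2673 ± 148 CPM. NGFR, lower at 20 h than without drug, had 360.3 ± 3.44 CPM at 7 d.

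Against vector cells without drug, 5042 genes were higher and 4837 lower after 20 h of LGX818 (24.6% and 23.6%). In vector cells EGR1, DUSP6 and DCT lay between the treated and the untreated BRAF-V600E means: EGR1 had 1.5 CPM with LGX818 and 161 CPM in vector cells (log2 -6.74, SE 0.16), DUSP6 had 11 CPM and 283 CPM (log2 -4.68, SE 0.08), and DCT had 1863 CPM and 228 CPM (log2 3.03, SE 0.15). Other genes, among them MMP1 and PMEL, did not lie between these means in vector cells. MMP1 had 492 CPM with LGX818, 3519 CPM in untreated BRAF-V600E cells and 4109 CPM in vector cells. PMEL had 2717 CPM, 647 CPM and 567 CPM in the same order. All 45 spindle genes were lower with LGX818 than in vector cells. Of the 50 ribosomal protein genes 1 was lower and 0 higher than in vector cells.

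**Figure D5:**
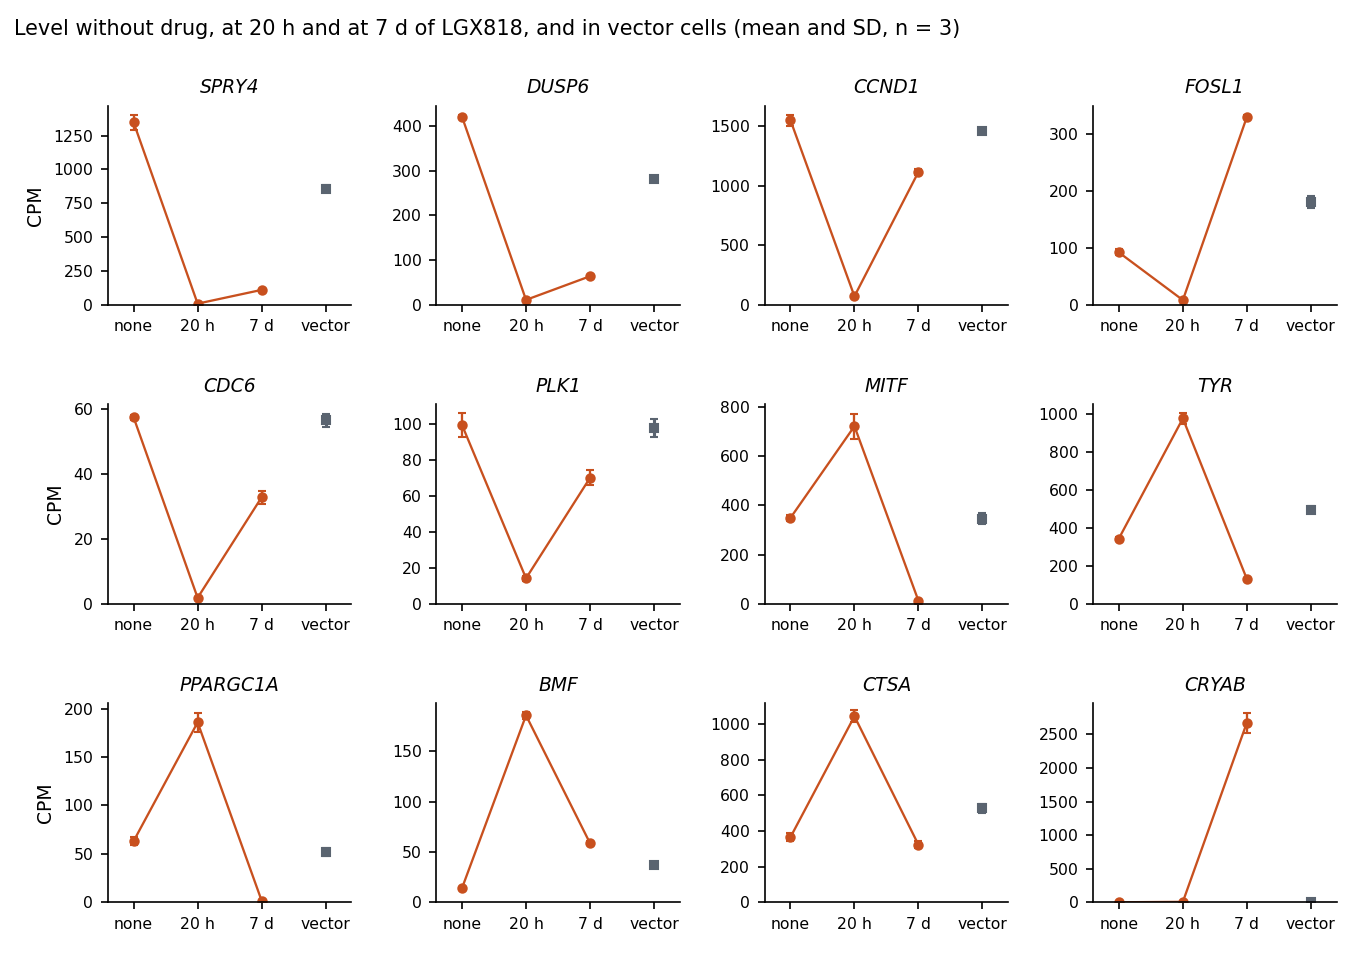
Mean CPM and SD (n = 3 libraries) of 12 genes in BRAF-V600E cells without drug, at 20 h and at 7 d of LGX818, joined by a line, with vector cells without drug as a square. CCND1, CDC6 and PLK1 fall at 20 h and stand higher again at 7 d, whereas MITF, TYR and PPARGC1A stand highest at 20 h and low at 7 d.

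Markers of other cell types were mostly low or absent, with exceptions in the keratinocyte, endothelial and fibroblast lists. Of 10 leukocyte markers 2 passed the filter on low counts, LYZ and CD68, and their summed level was 1.54 to 1.90 CPM with LGX818 and 1.72 to 2.40 CPM without. Of 10 keratinocyte and epithelial markers 5 were tested, of which 2 rose and 0 fell, with a summed level of 13.2 to 17.3 CPM with LGX818 and 9.84 to 15.4 CPM without. KRT14, a keratin of basal epidermis, rose, with 70 counts over the treated libraries and 1 over the untreated ones, and TP63, a factor of the same layer, rose too (log2 1.08, SE 0.42), though TP63 was not called without the first or the second 20 h library, without the third untreated library or without the filter on low counts. KRT10 had 13.1 ± 2.11 CPM with LGX818 and 12 ± 2.76 CPM without and did not pass the test, and the keratin genes KRT5 and KRT1 had 0 counts in these libraries. Of 6 tested endothelial markers only KDR fell, with PECAM1 at 0 ± 0 CPM with LGX818 and 0.0631 ± 0.109 CPM without. EMCN, another of them, had 4.11 ± 0.883 CPM with LGX818 and 2.5 ± 0.565 CPM without and did not pass the test. Vector cells held 0.848 ± 0.32 CPM of EMCN, and the 20 h level was called higher than that (log2 2.29, SE 0.39). Of 10 fibroblast markers 3 rose and 0 fell, with a sum of 158 ± 4.06 CPM with LGX818 and 124 ± 3.02 CPM without. ACTA2, smooth muscle actin, had 36.6 ± 1.6 CPM with LGX818 and 17.9 ± 1.88 CPM without, FAP, fibroblast activation protein, had 69.2 ± 3.37 CPM with LGX818 and 53.7 ± 0.777 CPM without, and the collagen gene COL3A1 had 42 counts over the treated libraries and 5 over the untreated ones. POSTN, periostin, had 48.7 ± 2.76 CPM with LGX818 and 49.9 ± 2.32 CPM without and did not pass the test. Other members of the fibroblast list were near the floor, among them DCN, LUM and THY1. They averaged 0.197, 0.952 and 0.0271 CPM with LGX818 and 0.108, 0.713 and 0.0512 CPM without. The part of other cell types in the results was not tested.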

How the data were processed

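The authors deposited whole-number read counts per gene for all 29 libraries, without normalization. The counts of the week 3 intermittent libraries are headed drug off, while their sample titles say drug on. They were matched by week, schedule and replicate number. Per the labels' protocols, libraries were made from 100 ng of total RNA with the NuGEN Universal Plus mRNA-seq kit. The submitters' processing notes name GRCh38 and the tools HTSeq 0.6.1, HISAT2 2.0.3, Trimmomatic 0.32 and SAMtools 0.1.18. The annotation release and the use of strand in counting are not given in the sources used here, so counts of overlapping, antisense and near-identical genes are uncertain. The labels do not say that replicates were separate cultures, so p-values measure only the spread between these libraries, which may be technical.

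All 29 libraries in 10 groups entered 1 edgeR 4.0.16 quasi-likelihood fit (glmQLFit and glmQLFTest in R 4.3.3, TMM scaling, filterByExpr), with 19 residual degrees of freedom, on 20494 of 60675 genes, and p-values were adjusted by Benjamini-Hochberg over all of these. CPM use TMM-scaled totals. The fit was tested on simulated data for 20 h of LGX818 against untreated cells, on 19231 genes of which 200 were changed. It recovered 79.1% of those changed 1.5-fold, 97% at 2-fold and 100% at 4-fold. The changed genes were drawn only from those above a floor of expected counts, so these rates do not cover genes with few counts. All other genes were simulated without change, unlike in the data. Promoters are those of RefSeq for GRCh38.p14, 27305 in all, of which 11857 matched a tested gene by symbol.

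The comparison, the 59 gene lists and their members were chosen with earlier results of these data known. Genes are named by rule: the 12 largest rises and falls among genes whose mean reached 5 CPM and whose groups did not overlap, the 10 largest gains and losses in CPM, genes read in a single group, and per list its key members, up to 6 called in its main direction, up to 3 called against it, and any member of a list of 16 or fewer. A few genes chosen this way are not reported here. EGFR lies outside the rule and was chosen after its values were seen. Alternatives were RLE factors, library totals alone, TMM without mitochondrial genes, no filter on low counts, a replicate block, a fit of the 2 groups, DESeq2 1.42.0, glmTreat against a fold of 1.5, a longer promoter window, and leaving out each library.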

Additional observations from a re-analysis of the deposited data

How the results depend on the processing

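In tests against no change, the counts of genes that rose or fell in the 3 contrasts stayed within 1.5 times those reported under each alternative run. For 20 h of LGX818 against untreated cells they were 5675 higher and 5300 lower with RLE factors, 5353 and 5609 in a fit of the 2 groups alone, 5493 and 5184 with DESeq2, and 4972 to 5450 and 4713 to 5187 when a library was left out. With the replicate block they were 5789 and 5142. Deviations of same-numbered libraries of these groups correlated at -0.366, -0.065 and 0.215 across genes. Differently numbered pairs ranged from -0.240 to 0.348, so these values cannot decide whether same-numbered libraries were paired. Testing against a fold of 1.5 left 2445 rises and 2429 falls, fewer than the 5830 and 5173 tested against no change. Of the counts of list members under an alternative, 43 moved by more than 1.5 times and 1491 did not; they include the ribosomal protein, respiratory chain and mitochondrial counts given with the results, and the pigment gene falls, which were 3 in the fit of the 2 groups. No gene named in the text changed direction where it was called; HMGCS1, BCL2L1, MT-ND1, FN1, EGFR and SOX2, not called in the results, were called in some of these fits. The share of spindle gene promoters with a CHR was 72.5% in the 300-base window, which adds the 50 bases after the start, and the shares of replisome promoters with TTGGCGC and TTCCCGC were 24.4% and 39% there, against 12.2% and 29.3% in the 250 bases; the cause was not tested. Depth limits the genes with few counts, such as CCND2, CDKN2A and EGFR. The labels name no vehicle, so effects of LGX818 and of any vehicle cannot be told apart.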
